A study of Mus musculus with 30 samples.

Results

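Genes that make and arm the osteoclast, 9 in number, were followed through regeneration of the mouse digit tip. The genes are Dcstamp, Ocstamp, Atp6v0d2, Acp5, Ctsk, Itgb3, Oscar, Calcr and Nfatc1. They were chosen by name, as genes known for osteoclast fusion and bone resorption, and all 9 were found among the 20321 genes measured. RNA was taken from the third hindlimb digit of 30 mice, adult male C57Bl/6 animals in which at most 33% of the distal phalanx (P3) had been cut away. Digits were collected within the first day (0h, 3h, 6h, 12h and 24h) and then at 3d, 7d, 14d and 21d, from 6 mice at 7d and from 3 at every other time. Every group carried the amputation, the 0h mice too, and no uninjured digit enters the comparisons. No stitches were placed, and each mouse gave 1 library from the whole collected tissue, with no cell sort. The titles give the right foot for all mice except 3 of the 6 at 7d, which have the left.

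Osteoclasts are large multinucleated cells that form when precursors of the monocyte lineage fuse. The cytokine RANKL, bound by its receptor RANK on the precursor, switches on the transcription factor Nfatc1, which in turn drives genes for fusion, attachment and resorption. The finished cell seals itself to bone, pumps acid through a vacuolar proton pump and secretes enzymes that digest the exposed collagen. In the regenerating digit tip, osteoclasts are known to erode the stump bone before new bone is laid down.

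The main feature of the data was a maximum of the means at 7d in most of the genes. By mean CPM (a gene's count relative to the TMM-scaled library total), 8 of the 9 genes were highest at 7d, and Calcr, which was barely detected, was highest at 3d. Ocstamp is among these 8, but it was not called over the time course or at 7d. The share of all genes with their highest mean at 7d was not counted. Over the whole time course, 7 of the 8 genes that could be tested changed, against 9.01% of all 13793 genes tested. At 7d against 0h, Dcstamp, Atp6v0d2, Acp5, Ctsk, Itgb3, Oscar and Nfatc1 rose, which is 7 of 8 tested members and compares with 1.68% of all genes tested that were called higher. The median log2 fold change of the 8 tested genes at 7d was 4.24, and that of all genes tested was -0.01. Against 3d, only Ctsk and Itgb3 were called higher at 7d, and the rest of the tested members had adjusted p-values from 0.313 to 0.729. For these, a peak at 7d was not told apart from a level held from 3d. A gene is called where its p-value from the quasi-likelihood test of edgeR, adjusted by Benjamini-Hochberg over all genes tested, was under 0.05. All comparisons with 0h share the same 3 mice at 0h.

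**Figure D1:**
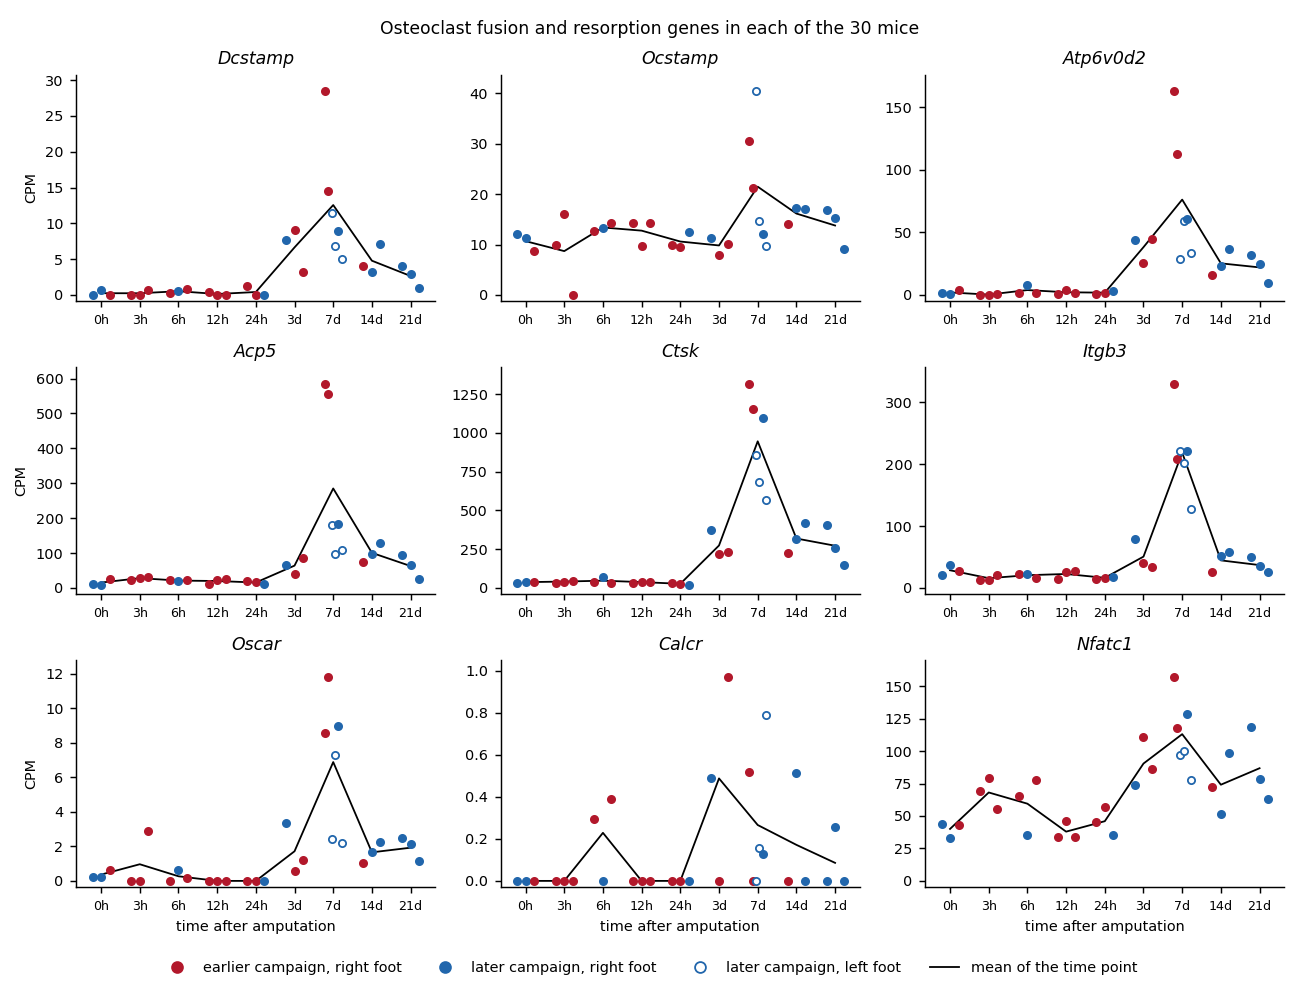
Each panel plots 1 gene in CPM against time after amputation, with a point for each of the 30 mice and a line through the mean of each time point. Red and blue points are the earlier and the later campaign, and open points are the left-foot mice at 7d. The means of 8 genes peak at 7d, while Calcr stays under 1 CPM in every mouse.

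The libraries held 3167625 to 16277816 expected counts (median 6103688). The titles hold dates that fall into 2 clusters, called here the earlier campaign (July to August, 16 mice) and the later campaign (November to January, 14 mice). The labels do not say whether a date marks surgery, collection or another step. The clusters are not balanced over time: the mice at 3h and 12h are all from the earlier campaign and those at 21d all from the later one. No library was counted as a duplicate of another, the chi-square between the counts of 2 mice of a time point being at least 9.83 per degree of freedom over 39 pairs. In a bulk sample, fewer osteoclasts and less RNA per osteoclast cannot be told apart. Keratinocyte markers, which define the skin of the digit, had a summed level of 76188 to 85433 TPM (transcripts relative to the total of a mouse, scaled by gene length) at 0h and 47128 to 76380 TPM at 7d, and 0 of 7 were called at 7d by edgeR (1 at an unadjusted p under 0.05) and 0 by DESeq2.

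The first genes described are those of cell fusion. Dcstamp encodes the transmembrane protein DC-STAMP, which precursors need in order to fuse, and lies on chromosome 15 at 39745930-39760938 (GRCm38, plus strand). At 0h it had 0, 0.746 and 0 CPM, the single positive mouse holding 7 counts. Over the 12 mice from 3h to 24h it lay between 0 and 1.25 CPM, with 6 of them at 0. Taking 3 counts as the limit, a count of 0 allows up to 0.235 to 0.659 CPM in these mice. This limit depends on the depth of the mouse and uses the library total without TMM scaling. At 3d the mice had 7.67, 9.11 and 3.16 CPM, so that all 3 stood above every earlier mouse. At 7d the lowest, median and highest of the 6 mice had 5.06, 10.2 and 28.5 CPM. At 14d the values were 4.06, 3.19 and 7.10 CPM, and at 21d 4.07, 2.96 and 0.912 CPM. No 7d mouse overlapped the 0h mice. Dcstamp rose at 3d (log2 fold change 4.62, SE 1.108, adjusted p = 0.0480), 7d (5.53, SE 1.09, adjusted p = 0.00376) and 14d (4.15, SE 1.09, adjusted p = 0.0469), and at 21d the difference was 3.31 (SE 1.082, adjusted p = 0.159). The calls at 3d and 14d stood close to the threshold and were each lost in 16 of the 30 fits that left out 1 mouse (0h replicates 1 and 3, all mice at 6h, 3d and 14d, 7d replicates 2, 4 and 5, and 21d replicates 1 and 2), with adjusted p-values up to 0.357 and 0.282. The call at 7d held in all 30, with adjusted p-values up to 0.0474. Without 0h replicate 2 no count remained at 0h, so the size of the fold rests on that mouse.

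Ocstamp encodes OC-STAMP, a related membrane protein of osteoclast fusion, and lies on chromosome 2 at 165393760-165400405 (minus strand). Its course was unlike that of Dcstamp. Its 0h mice had 12.0, 11.2 and 8.80 CPM, and from 3h to 24h its median was 12.5 CPM with a range from 0 to 16.1 CPM. At 3d it had 11.3, 7.93 and 10.2 CPM. The 7d mice ran from 9.80 through a median of 17.9 to 40.4 CPM. At 14d it had 14.1, 17.3 and 17.0 CPM, and at 21d 16.9, 15.3 and 9.12 CPM. Of the 6 mice at 7d, 5 lay above all 0h mice. Ocstamp was not called over the time course (adjusted p = 0.431) or at 7d (log2 fold change 0.99, SE 0.48, adjusted p = 0.372). It is a member whose counts are less certain, since 1.22% of the 65-base windows of its transcript occur in other genes (109 of them), at transcript bases 2141 to 3574 and thus beyond the end of the coding sequence at base 1568, and only 6.90% of the mice with a count had a whole-number expected count.

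Atp6v0d2 encodes the d2 subunit of the vacuolar proton pump, which is enriched in osteoclasts and takes part in both fusion and acid secretion. It lies on chromosome 4 at 19876841-19922605 (minus strand). The 0h mice had 1.44, 0.640 and 4.00 CPM, and no mouse from 3h to 24h exceeded 8.11 CPM. At 3d it had reached 44.0, 25.6 and 44.9 CPM. The 7d mice had 28.4 CPM at the lowest, 59.7 CPM at the median and 163 CPM at the highest. Levels at 14d were 15.9, 23.1 and 36.8 CPM, and at 21d 31.9, 24.4 and 9.80 CPM. Every mouse from 3d on was above every earlier mouse. Atp6v0d2 rose at 3d (log2 fold change 4.33, SE 0.73, adjusted p = 0.00140), 7d (5.32, SE 0.73, adjusted p = 4.68e-05), 14d (3.74, SE 0.72, adjusted p = 0.00307) and 21d (3.54, SE 0.72, adjusted p = 0.00425). The 21d call was lost without 0h replicate 1 or 0h replicate 2, with adjusted p-values up to 0.0616.

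The secreted enzymes come next. Acp5 encodes tartrate-resistant acid phosphatase (TRAP), the classical stain for osteoclasts, and lies on chromosome 9 at 22126727-22135711 (minus strand). Its exons overlap those of 6530413G14Rik on the opposite strand by 137 bases, and 5.40% of its 65-base transcript windows occur in that gene, so that reads of that stretch cannot be told apart. At the start, 0h, Acp5 had 11.9, 8.42 and 25.9 CPM, and from 3h to 24h it lay between 10.0 and 32.2 CPM. At 3d the mice had 65.4, 40.6 and 86.0 CPM. At 7d they had 98.2, 181 and 585 CPM at the lowest, median and highest. At 14d the values were 75.8, 98.5 and 127 CPM, and at 21d 94.9, 66.3 and 26.9 CPM. The 3 mice of each late time point all lay above the 0h mice, as did all 6 mice at 7d. Acp5 rose at 7d (log2 fold change 4.23, SE 0.58, adjusted p = 4.68e-05) and 14d (2.73, SE 0.57, adjusted p = 0.00740). At 3d the difference was 2.08 (SE 0.56, adjusted p = 0.107) and at 21d 2.05 (SE 0.56, adjusted p = 0.0513). The 14d call was lost without 0h replicate 1 or 0h replicate 2 (adjusted p up to 0.0764), and the 21d difference was called in 7 of the 30 fits with 1 mouse left out (without 0h replicate 3, 21d replicate 3, or 7d replicate 1, 2, 3, 4 or 6).

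Ctsk encodes cathepsin K, the protease that cuts bone collagen, and lies on chromosome 3 at 95499256-95509362 (plus strand). By TPM it had the highest mean of the 9 genes at 7d. The mice at 0h had 29.8, 41.1 and 40.8 CPM, and from 3h to 24h between 20.1 and 72.4 CPM. By 3d it stood at 373, 217 and 231 CPM. The lowest, median and highest mice at 7d had 567, 977 and 1316 CPM. The mice at 14d had 224, 315 and 418 CPM, and those at 21d 409, 257 and 150 CPM. The 7d mice overlapped with no mouse of any other time point. Ctsk rose at 3d (log2 fold change 2.88, SE 0.36, adjusted p = 3.40e-05), 7d (4.67, SE 0.37, adjusted p = 7.62e-09), 14d (3.10, SE 0.36, adjusted p = 6.08e-06) and 21d (2.87, SE 0.36, adjusted p = 1.02e-05), and each of these calls held in all 30 fits with 1 mouse left out.

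Among the receptors, Itgb3 encodes integrin beta 3, which with the alpha V chain fastens the osteoclast to bone and is also carried by platelets and endothelium. It lies on chromosome 11 at 104608000-104670476 (plus strand), and only 3.33% of its expected counts were whole numbers, although none of its 65-base windows occurs in another gene. At 0h it had 21.0, 37.3 and 27.4 CPM. From 3h to 24h it lay between 12.6 and 27.8 CPM, and 7 of these 12 mice were below all 0h mice. At 3d it had 78.9, 39.7 and 33.3 CPM. At 7d the mice had 128, 215 and 330 CPM at the lowest, median and highest. At 14d it had 25.1, 51.1 and 57.5 CPM, and at 21d 49.5, 35.0 and 26.2 CPM. The 7d mice were above all other mice, and the 14d and 21d mice overlapped with 0h. Itgb3 rose at 7d (log2 fold change 2.94, SE 0.34, adjusted p = 6.39e-06), while the differences were 0.84 at 3d (SE 0.35, adjusted p = 0.566), 0.65 at 14d (SE 0.34, adjusted p = 0.627) and 0.37 at 21d (SE 0.34, adjusted p = 0.969). Of the platelet and megakaryocyte markers, 3 of 7 passed the filter on low counts and 0 of them were called at 7d by edgeR (0 at an unadjusted p under 0.05) and 0 by DESeq2. Their summed level over all 7 was 51.9 to 64.5 TPM at 0h and 25.0 to 87.7 TPM at 7d, with Gp1ba, Gp9 and Gp6 at 0 in all 6 mice at 7d. Of 6 endothelial markers 1 was called higher at 7d, Cdh5 (log2 fold change 1.54, SE 0.33, adjusted p = 0.00721), and their summed level was 79.3 to 108 TPM at 0h and 108 to 206 TPM at 7d. The part of these cells in the Itgb3 level was not tested.

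Oscar encodes an immunoglobulin-like receptor that binds collagen and gives osteoclast precursors a second, co-stimulatory signal, and lies on chromosome 7 at 3609813-3616157 (minus strand). At 0h it had 0.240, 0.213 and 0.640 CPM, which are 2 to 4 counts a mouse. From 3h to 24h, 9 of 12 mice were at 0, including all mice at 12h and 24h, and the highest had 2.89 CPM. At 3d it had 3.34, 0.588 and 1.21 CPM. The 7d mice had 2.21, 7.92 and 11.8 CPM at the lowest, median and highest. At 14d the values were 1.06, 1.65 and 2.25 CPM, and at 21d 2.50, 2.124 and 1.14 CPM. All 6 mice at 7d were above the 0h mice, and 4 of them were above every mouse from 3h to 24h. Oscar rose at 7d (log2 fold change 4.25, SE 1.10, adjusted p = 0.0379), a call that rests on few counts at 0h and was lost without any 1 of the 3 mice at 0h or without 7d replicate 4 or 5, with adjusted p-values from 0.0551 to 0.235. The differences at 3d, 14d and 21d were 2.34, 2.22 and 2.43 (SE 1.122, 1.111 and 1.107), with adjusted p-values of 0.739, 0.583 and 0.476.

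Calcr encodes the calcitonin receptor, through which the hormone calcitonin halts resorption, and lies on chromosome 6 at 3685680-3764714 (minus strand). It held 31 counts in 10 of 30 mice and was the only member that did not pass the filter on low counts in the fit of all 30 mice, so it was not tested there. All mice at 0h, 3h, 12h and 24h were at 0. By the same limit without TMM scaling, this allows up to 0.235 to 0.947 CPM in a mouse. At 6h, 2 of 3 mice held 2 counts each (0.294, 0 and 0.392 CPM). At 3d it had 0.491, 0 and 0.971 CPM, at 14d 0, 0.515 and 0 CPM, and at 21d 0, 0.257 and 0 CPM. The 7d mice ran from 0 through a median of 0.144 to 0.791 CPM. A change in Calcr was not detectable at this depth.

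Nfatc1, the transcription factor at the head of the programme, lies on chromosome 18 at 80606205-80713071 (minus strand) and is also expressed in cells other than osteoclasts. Its levels at 0h were 43.7, 33.4 and 43.0 CPM. From 3h to 24h it lay between 33.5 and 79.3 CPM, with 8 of the 12 mice above all 0h mice. At 3d it had 73.9, 111 and 86.4 CPM, and at 7d 77.9, 109 and 157 CPM at the lowest, median and highest. At 14d it had 72.2, 51.9 and 98.2 CPM, and at 21d 119, 78.5 and 63.3 CPM. From 3d on, every mouse was above the 0h mice. Nfatc1 rose at 7d (log2 fold change 1.496, SE 0.26, adjusted p = 0.00109) and 21d (1.117, SE 0.29, adjusted p = 0.0334), and the differences at 3d and 14d were 1.17 (SE 0.29, adjusted p = 0.0616) and 0.89 (SE 0.29, adjusted p = 0.160). The 21d call was lost without any 1 of the 3 mice at 0h or without 21d replicate 1 or 2, with adjusted p-values up to 0.499, and the 3d difference was called in 9 of the 30 fits.

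The calls at each time point were read in turn. During the first day, none of the 8 tested members was called against 0h by edgeR, at time points where 0.254% (3h), 0.189% (6h), 0.167% (12h) and 0.493% (24h) of all genes were called in either direction. At an unadjusted p under 0.05 there were 3, 0, 1 and 2 of the 8 members at these times, against 1506, 998, 1058 and 1298 of the 13793 genes tested. DESeq2 called none of the members. At 3d, 3 members were called higher (Ctsk, Dcstamp and Atp6v0d2), against 0.486% of all genes. There were 7 of the 8 tested members at an unadjusted p under 0.05 at 3d, against 918 of the 13793 genes tested. The median log2 fold change of the 8 members was 2.21. The calls thus do not give the order in which the genes began to rise. After 7 members at 7d, 4 were called higher at 14d (Acp5, Ctsk, Dcstamp and Atp6v0d2), against 1.48% of all genes, and 3 at 21d (Ctsk, Atp6v0d2 and Nfatc1), against 1.73%. The count at 14d fell to 2 without 0h replicate 1 and the count at 21d to 1 without the same mouse. Without the left-foot mice, and with DESeq2's test, 5 members were called at 3d, with Acp5 and Nfatc1 added, and with DESeq2's test 5 were called at 21d, with Acp5 and Dcstamp added.

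**Figure D2:**
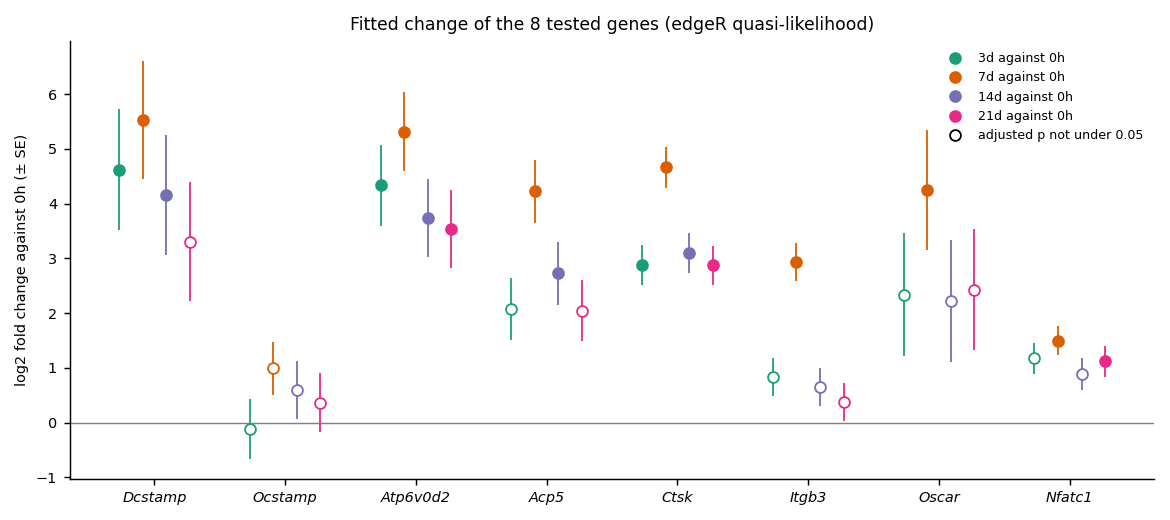
Fitted log2 fold change against 0h, with its standard error, of the 8 tested genes at 3d, 7d, 14d and 21d. Filled points have an adjusted p under 0.05. Ctsk and Atp6v0d2 are filled at all 4 time points, Itgb3 and Oscar at 7d, and Ocstamp at none.

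Upstream sequence was looked at because the genes moved together. RefSeq promoters of GRCm38.p6 covered 4 of the 9 members (Acp5, Calcr, Ctsk and Oscar) with 7 starts between them, and the 250 bases before each start were searched on both strands for the NFAT core TTTCCA, the AP-1 site TGANTCA, the PU.1 core GAGGAA and the MITF M-box TCATGTG. The 3 windows that held any of them are shown, each 5′ to 3′ on the strand of the gene, with the matches in capitals.
Ctsk, chr3:95498960-95499209, plus strand: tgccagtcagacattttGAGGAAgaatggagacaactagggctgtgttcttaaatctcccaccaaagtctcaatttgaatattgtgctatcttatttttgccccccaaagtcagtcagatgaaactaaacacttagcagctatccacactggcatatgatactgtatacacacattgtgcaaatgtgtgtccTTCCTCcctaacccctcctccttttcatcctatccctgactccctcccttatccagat
Acp5, chr9:22130609-22130848, minus strand, without the last 10 bases, which lie in an exon: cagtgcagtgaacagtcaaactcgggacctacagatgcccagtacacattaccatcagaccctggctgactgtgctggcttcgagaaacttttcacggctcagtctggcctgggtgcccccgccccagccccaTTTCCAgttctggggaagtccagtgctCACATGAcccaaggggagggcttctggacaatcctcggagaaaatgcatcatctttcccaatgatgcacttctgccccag
Oscar, chr7:3616158-3616407, minus strand: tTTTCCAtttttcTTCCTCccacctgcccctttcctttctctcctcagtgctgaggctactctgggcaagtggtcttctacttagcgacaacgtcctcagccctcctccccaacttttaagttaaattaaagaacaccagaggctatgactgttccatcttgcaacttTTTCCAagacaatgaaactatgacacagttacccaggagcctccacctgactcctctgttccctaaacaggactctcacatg
The Ctsk window held the PU.1 core 233 bases before the start and again, on the other strand, 58 bases before it. The Acp5 window, which belongs to the innermost of its 3 starts, held the NFAT core 117 bases and the M-box, on the other strand, 90 bases before the start, and the windows of the other 2 starts held none of the 4 motifs. The Oscar window held the NFAT core 249 and 82 bases before the start and the PU.1 core, on the other strand, 237 bases before it. None of the matches overlapped another. Such short words are common: of 32851 promoters, 18.6% held the NFAT core, 23.3% the PU.1 core, 6.75% the AP-1 site and 3.25% the M-box, and of the 7 member promoters 2, 2, 0 and 1 did. A match is a description of these letters and not a measured binding site.

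The same pair of members was called in the step into the peak and in the step out of it. Both steps use the same mice at 7d, so their calls are not independent. From 3d to 7d, Ctsk (log2 fold change 1.79, SE 0.32, adjusted p = 0.0303) and Itgb3 (2.09, SE 0.33, adjusted p = 0.00765) rose, and these were the only 2 of all 13793 genes tested that edgeR called in that comparison (0.0145%). The call of Ctsk was lost without 3d replicate 2 or 3 or without 7d replicate 1 or 5, and that of Itgb3 without 3d replicate 2 or 3, and neither was called in a fit of these 2 time points alone. The later-campaign mouse at 3d was the highest there for both genes, and within campaigns the difference of means in log2(CPM + 1) was 2.45 in the earlier and 1.06 in the later campaign for Ctsk, and 2.82 and 1.25 for Itgb3. From 7d to 14d, Ctsk fell by 1.57 on the log2 scale (SE 0.31, adjusted p = 0.0140) and Itgb3 fell by 2.29 (SE 0.33, adjusted p = 0.000565), in a comparison where 0.0798% of all genes were called lower. The Ctsk call there was lost without 14d replicate 1 or 2, and the Itgb3 call held in all 30 fits with 1 mouse left out. DESeq2 also called Acp5 from 3d to 7d. Without the left-foot mice, Acp5 joined in both steps, with a log2 fold change of 2.79 from 3d to 7d (adjusted p = 0.00589) and of -2.16 from 7d to 14d (adjusted p = 0.0225). From 14d to 21d no member was called and no gene at all (0%), with 0 members and 270 genes at an unadjusted p under 0.05, and DESeq2 called 0 members and 5 genes.

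How much of the peak was left at 21d differed between the genes in value. The 21d mean was 16.9% of the 7d mean for Itgb3, 21.1% for Dcstamp, 22.004% for Acp5, 27.9% for Oscar, 28.8% for Ctsk, 28.9% for Atp6v0d2 and 76.8% for Nfatc1. All 21d mice were from the later campaign, and against the 4 later-campaign mice at 7d alone the shares were 19.1% for Itgb3, 32.8% for Dcstamp, 34.0% for Ctsk, 36.8% for Oscar, 44.1% for Acp5, 48.5% for Atp6v0d2 and 86.1% for Nfatc1. The values of Acp5, Dcstamp and Atp6v0d2 thus moved by more than 1.5 times and the order of the genes changed, with Itgb3 the lowest and Nfatc1 the highest of these 7 either way. None of these shares takes off the 0h level. The 0h mean was already 35.4% of the 7d mean for Nfatc1 and 13.1% for Itgb3. It was 5.41% for Acp5, 5.30% for Oscar, 3.94% for Ctsk, 2.66% for Atp6v0d2 and 1.98% for Dcstamp. The order therefore does not rank how much of the rise from 0h was kept. To set a pair of genes against each other within a mouse, the ratio of their TPM was taken, as a description since the pairs were picked after their values had been seen. For the same reason, a permutation test that was run on the ratio of Itgb3 to Ctsk is not used here. Itgb3 stood at 0.0596 ± 0.0104 (SD, n = 6) of the Ctsk level at 7d, at 0.0348 ± 0.00636 (SD, n = 3) at 14d and at 0.0364 ± 0.00697 (SD, n = 3) at 21d, against 0.193 ± 0.0324 (SD, n = 3) at 0h. Nfatc1 moved the other way against Ctsk after the peak, with 0.0396 ± 0.00538 (SD, n = 6) at 7d, 0.0777 ± 0.0255 (SD, n = 3) at 14d and 0.109 ± 0.0228 (SD, n = 3) at 21d, against 0.359 ± 0.106 (SD, n = 3) at 0h. For both pairs the 7d mice did not overlap the mice at 14d or 21d. Ratios of Acp5 and of Atp6v0d2 to Ctsk were taken as well, and there the 7d mice overlapped those at 14d and at 21d.

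Between genes, levels can be compared only per length. At 7d Ctsk had a mean of 1425 TPM (794.7 to 2164 over 6 mice) and Acp5 498 TPM (154 to 1090). Ctsk was above Acp5 in each of the 6 mice, although their ranges overlapped. Itgb3 followed with 82.7 TPM, Atp6v0d2 with 69.3 TPM and Nfatc1 with 54.6 TPM, and these 3 overlapped and changed places between mice. Dcstamp with 14.3 TPM, Ocstamp with 12.7 TPM and Oscar with 8.63 TPM formed a lower group that also overlapped, and Calcr was last with 0.163 TPM. At 0h Ctsk (54.3 TPM) had the highest mean and was above Acp5 in all 3 mice, although the ranges overlapped. Acp5 (24.6 TPM) and Nfatc1 (18.8 TPM) were not ordered, since their ranges overlapped and Acp5 was the higher in 1 of 3 mice. Atp6v0d2 stood at 1.76 TPM and Dcstamp at 0.260 TPM.

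**Figure D3:**
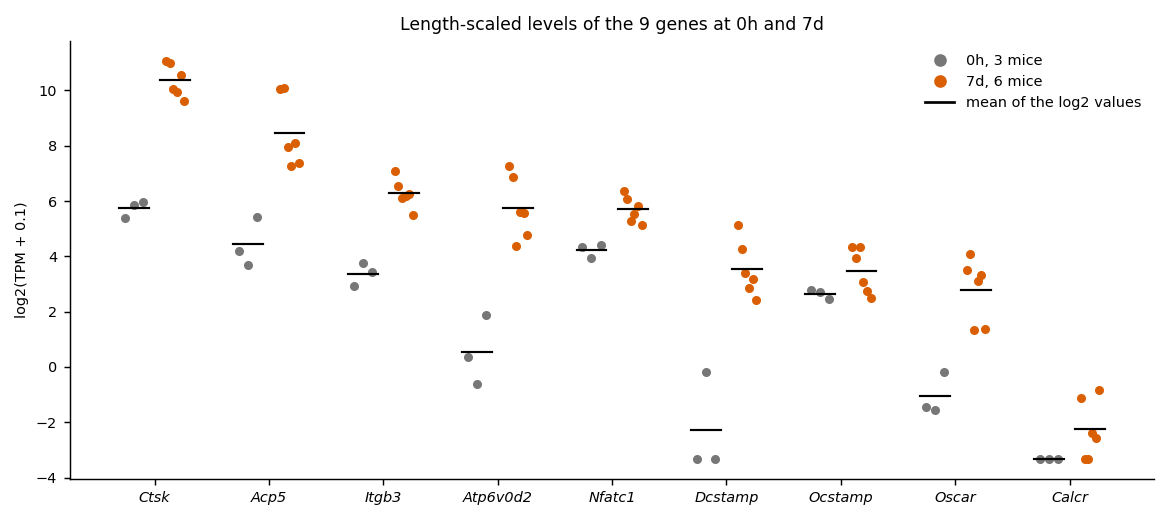
Levels of the 9 genes as log2(TPM + 0.1) at 0h (grey, 3 mice) and 7d (orange, 6 mice), with 1 point a mouse and a bar at the mean of the log2 values, ordered by mean TPM at 7d. For 7 genes the orange points lie wholly above the grey ones, and for Ocstamp and Calcr they overlap.

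Within campaigns, the difference from 0h to 7d kept its sign in both for all 8 tested genes. In log2(CPM + 1) it was 4.41 (2 mice against 1) in the earlier and 3.64 (4 mice against 2) in the later campaign for Acp5, 4.88 and 4.43 for Ctsk, 4.77 and 4.46 for Atp6v0d2, 4.42 and 2.73 for Dcstamp, 3.22 and 2.71 for Itgb3, 2.75 and 2.16 for Oscar, 1.64 and 1.36 for Nfatc1, and 1.44 and 0.47 for Ocstamp. Of the 6 mice at 7d, replicate 1, an earlier-campaign mouse, was the highest for 6 of the 9 genes, and replicate 6, a left-foot mouse of the later campaign, was the lowest for 6. The course itself was compared between campaigns over the 6 time points that hold both (21 mice), where 0.883% of 13587 genes were called. Atp6v0d2 was the only member called (adjusted p = 0.0337), with Acp5 at 0.0521 and Ctsk at 0.0682, and without the left-foot mice Atp6v0d2 (0.0482) and Ctsk (0.0438) were called. For Atp6v0d2 the step from 3d to 7d was 1.96 in the earlier campaign (2 mice against 2) and -0.03 in the later one (4 mice against 1), and the step from 7d to 14d was -3.01 and -0.54. Dcstamp had 7.67 CPM in the later-campaign mouse at 3d and a mean of 8.08 CPM in the 4 later-campaign mice at 7d. In the earlier campaign it had 9.11 and 3.16 CPM at 3d and 28.5 and 14.5 CPM at 7d. Since 3 of the 4 later-campaign mice at 7d were left feet, campaign and foot cannot be fully told apart at 7d.

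**Figure D4:**
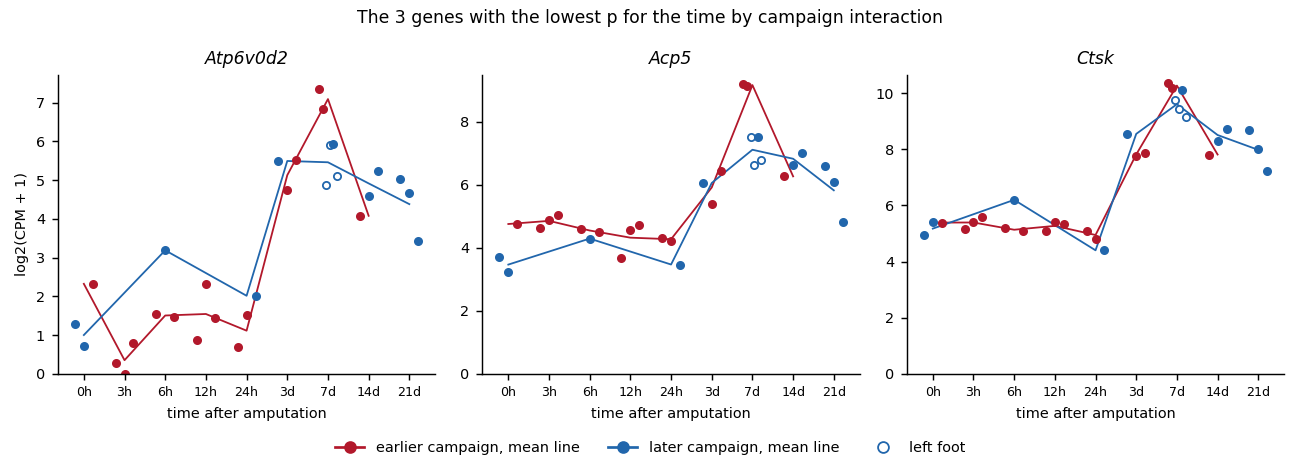
Levels as log2(CPM + 1) of Atp6v0d2, Acp5 and Ctsk by time after amputation, with 1 point a mouse and a line through the mean of each campaign (red, earlier; blue, later; open points, left foot). For Atp6v0d2 and Acp5 the red line peaks sharply at 7d, and the blue line is flatter from 3d to 14d.

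How closely the members moved together differed between genes. As a description over the 30 mice, which share time points and campaigns, the correlation of each gene with the mean of the other tested members, in log2(CPM + 1), was 0.97 for Ctsk, 0.94 for Acp5, 0.93 for Dcstamp, 0.92 for Atp6v0d2, 0.90 for Itgb3, 0.86 for Oscar and 0.79 for Nfatc1, but 0.37 for Ocstamp. With the mean of each time point taken off, Acp5 (0.76) and Ctsk (0.75) still had the highest values. Those of the others were lower: Dcstamp (0.58), Atp6v0d2 (0.57), Itgb3 (0.55), Nfatc1 (0.42), Oscar (0.30) and Ocstamp (0.02). Of the genes outside the list, the 10 most like the mean profile over the 30 mice were Mmp9 (Pearson r = 0.96), Slc9b2 (0.94), Adrbk2 (0.93), Snx10 (0.93), Gpr137b (0.92), Jdp2 (0.92), Ctsz (0.91), Emb (0.91), Arsb (0.91) and Gusb (0.90). Of these, 4 were also among the 10 most like it by Spearman's rho, and 2, Mmp9 and Arsb, among the 10 after removal of the time point means.

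The other genes of the pathway were taken from lists of known osteoclast genes. Of 13 genes of acid and matrix enzyme secretion, all tested, 5 rose and none fell at 7d against 0h (0.66% of all genes tested were called lower), and the median log2 fold change was 0.66. Mmp9, a gelatin-cutting protease of osteoclasts and neutrophils, rose from a mean of 12.8 to 1142 CPM (log2 fold change 6.51, SE 0.61, adjusted p = 1.43e-07). Snx10, a sorting nexin needed for resorption (2.40, SE 0.29, adjusted p = 9.31e-06), Tcirg1, the a3 subunit of the proton pump (1.80, SE 0.36, adjusted p = 0.00407), Ckb, the brain-type creatine kinase (1.53, SE 0.38, adjusted p = 0.0244), and Mmp14, a membrane-bound protease (1.28, SE 0.20, adjusted p = 0.000230), were the others. Mmp9 was not called at 24h (29.3 CPM, adjusted p = 0.442) and was called at 3d, 14d and 21d (389, 514 and 297 CPM). Among neutrophil markers, S100a8 and S100a9 were already called at 24h (7.75 and 31.9 CPM, adjusted p = 0.0113 and 0.00440) and were called at 3d, 7d, 14d and 21d too. From 0h to 7d S100a8 rose from a mean of 0.0711 to 12.6 CPM (adjusted p = 0.00109), with 22.2 CPM at 14d, and S100a9 from 0.720 to 94.8 CPM (adjusted p = 7.39e-05), 2 of the 7 tested, with a summed level over the list of 16.9 to 25.2 TPM at 0h and 370 to 777 TPM at 7d, and Elane at 0 in all 7d mice. The other tested neutrophil markers were not called at 7d by edgeR, and Cxcr2 was lower there (22.8 CPM at 0h, 18.2 CPM at 7d, adjusted p = 0.829). Camp, Ltf and Ngp were at 0 in all mice at 0h, 3d and 14d and had means of 4.16, 11.3 and 7.47 CPM at 7d. The cells that held S100a8 and S100a9 transcripts were not told apart in this whole tissue. The part of neutrophils in the Mmp9 level was not tested.

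Of 15 receptors, adaptors and kinases, 13 were tested, 4 rose and none fell at 7d, with a median log2 fold change of 0.67. Csf1r, the receptor for the survival factor M-CSF, rose by 1.99 (SE 0.48, adjusted p = 0.0194), Syk, a kinase downstream of Oscar and the integrin, by 1.30 (SE 0.30, adjusted p = 0.0133), Tnfrsf11a, which encodes RANK, by 1.16 (SE 0.31, adjusted p = 0.0417) and Cd47, a membrane receptor of cell fusion and adhesion, by 0.59 (SE 0.15, adjusted p = 0.0246). Of 14 transcription factors, all tested, 2 rose and 1 fell, with a median of 0.20. Spi1, which encodes PU.1, rose by 3.61 (SE 0.80, adjusted p = 0.0104) and Jdp2, an AP-1 family member needed for osteoclast formation, by 2.33 (SE 0.33, adjusted p = 7.39e-05), while Fos fell by 3.27 (SE 0.38, adjusted p = 6.69e-06) from a mean of 597 CPM at 0h to 61.9 CPM. The fall of Fos was already called at 24h (55.1 CPM, adjusted p = 0.000358), and it was not called at 21d (283 CPM, adjusted p = 0.401). Of the 4 signals RANKL, osteoprotegerin, Csf1 and Il34, only Tnfsf11, which encodes RANKL, was called at 7d, where it had risen from 0.666 to 15.9 CPM (log2 fold change 4.61, SE 0.69, adjusted p = 0.000155). Tnfsf11 was already called at 24h (12.0 CPM, adjusted p = 0.00250), when 0 members were, and at 3d (16.2 CPM, adjusted p = 0.000760), 14d (12.6 CPM, adjusted p = 0.000734) and 21d (6.90 CPM, adjusted p = 0.00573). Over the whole time course 5 of 13 genes of secretion, 5 of 13 receptors, 4 of 14 transcription factors and 2 of 4 signals were called. Those not called at 7d were Fcer1g, an adaptor of immune receptors (adjusted p = 0.00625), which rose from 1.70 CPM at 0h to 8.49 CPM at 14d (adjusted p = 0.0438), Fosl1, an AP-1 subunit (adjusted p = 0.0305), and Csf1, which encodes M-CSF (adjusted p = 0.0197), with 23.8 CPM at 0h and 48.7 CPM at 24h (adjusted p = 0.171 for that step).

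**Figure D5:**
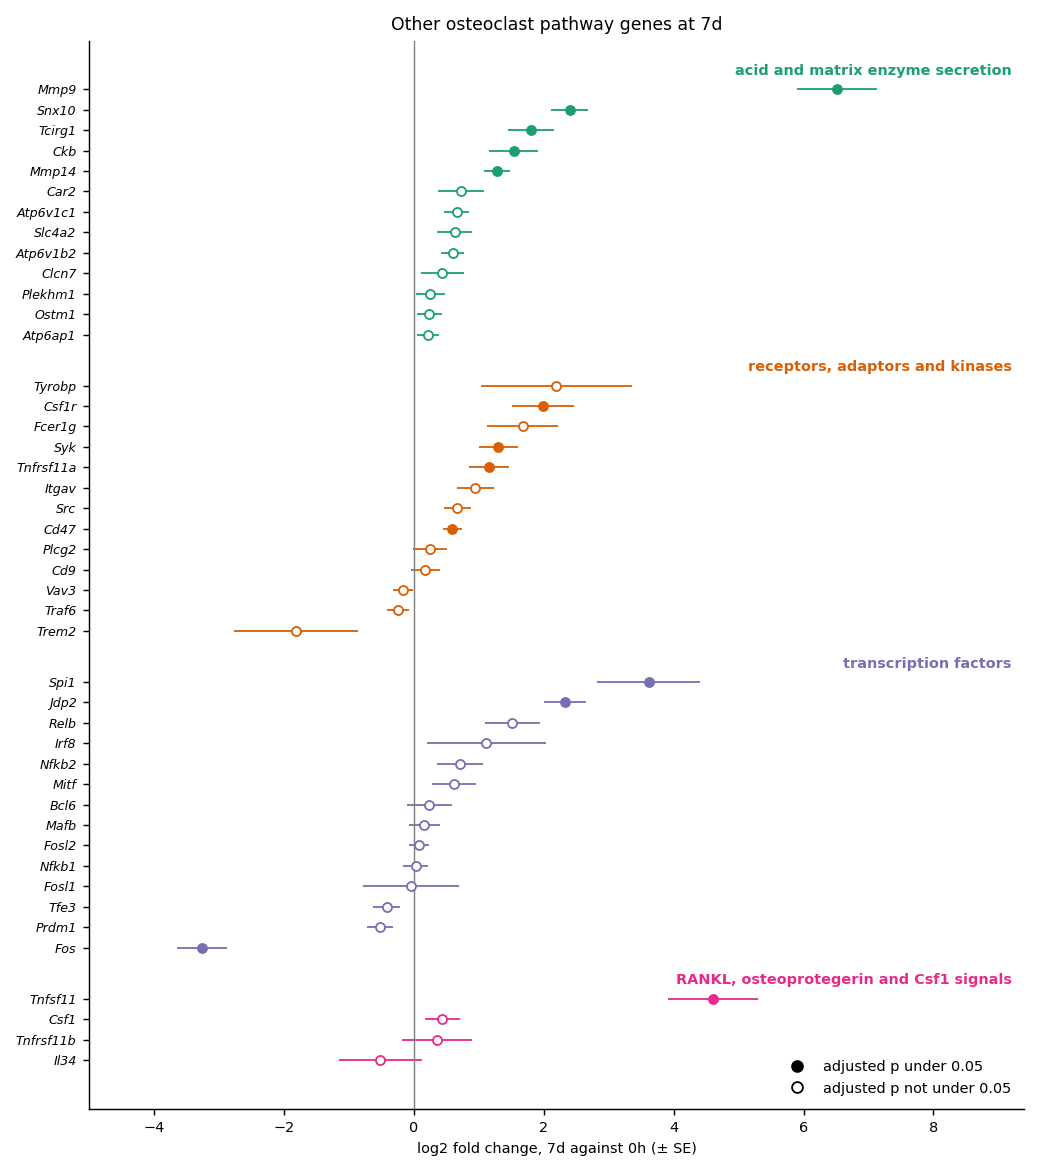
Fitted log2 fold change at 7d against 0h, with its standard error, of the tested genes of 4 osteoclast pathway lists. Filled points have an adjusted p under 0.05. Mmp9 (6.51) and Tnfsf11 (4.61) lie farthest to the right, and Fos (-3.27) is the single filled point to the left of 0.

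Macrophages share a lineage and several of these genes with osteoclasts. Of the 9 tested macrophage markers 0 were called at 7d by edgeR (1 at an unadjusted p under 0.05) and 0 by DESeq2. Their median log2 fold change was 0.47, none of those in the file was at 0, and their summed level was 176 to 230 TPM at 0h and 153 to 607 TPM at 7d. The summed level of the 9 members over the same mice was 95.97 to 147 TPM at 0h and 1083 to 3662 TPM at 7d, without overlap. Over the time course edgeR called 2 of the 9 macrophage markers, Cd14 and Cd163, against 9.01% of all genes tested. Cd14 was called higher than at 0h (3.11 CPM) at 24h (13.0 CPM, adjusted p = 0.0440) and 14d (11.3 CPM, adjusted p = 0.0378). Cd163 was called lower at 21d (32.2 CPM at 0h, 4.84 CPM at 21d, adjusted p = 0.00976). The part of macrophages in the members' levels was not tested. At 7d edgeR and DESeq2 called 0 dendritic cell markers (of 5 tested by edgeR, 1 at an unadjusted p under 0.05), 0 T cell markers (of 3, 0 unadjusted) and 0 muscle markers (of 2, 0 unadjusted). Among 11 osteoblast and osteocyte markers at 7d, Ibsp (log2 fold change 2.83, SE 0.48, adjusted p = 0.000708) and Col1a1 (1.496, SE 0.34, adjusted p = 0.0133) rose and Bglap2 fell by 3.15 (SE 0.58, adjusted p = 0.00246). The summed level of the 11 markers was 2386 to 3659 TPM at 7d, 8176 to 9962 TPM at 14d and 7129 to 10076 TPM at 21d. Not all markers followed the sum. Alpl, Col1a1, Ibsp, Runx2 and Sp7 were called higher than at 0h by edgeR at both 14d and 21d. Bglap, Bglap2, Dmp1, Mepe, Phex and Sost were called at neither. The highest counts of the list were those of Col1a1, with a mean of 17503 CPM at 14d, followed by Ibsp with 2041 CPM.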

How the data were processed

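Polyadenylated RNA of 30 amputated digits was sequenced by the authors after ligation-mediated library preparation. Base calling used CASAVA 1.8.2, and reads were mapped to mm10 mouse genes and quantified with RSEM 1.2.3. The authors deposited expected counts per gene and mouse, not normalized, and TPM per gene and mouse, relative to all genes of a mouse. Of the expected counts, 78.1% were whole numbers (within 1e-09). The deposited table of averages was not used.

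Expected counts were rounded to whole numbers and tested in 1 fit of all 30 mice without covariates, using edgeR 4.0.16 in R 4.3.3 (TMM scaling, filterByExpr with the time points as groups, quasi-likelihood F-tests with Benjamini-Hochberg adjustment and a threshold of 0.05). The filter kept 13793 of 20321 genes, and 8 of the 9 members. Standard errors are the log2 fold change divided by the square root of F. CPM are scaled by TMM, except for the limits given for a count of 0, which use the unscaled library total. The interaction of time with campaign was fitted over 21 mice. The alternatives were DESeq2 1.42.0 (its size factors and its test), no filter on low counts or at least 1 CPM in 3 mice, a stricter threshold (0.01), a campaign term, right-foot mice alone, only the 2 time points compared, limma 3.58.1 on log2(TPM + 1) and log2(TPM + 0.1), and fits that dropped 1 mouse each. The functions were tested on simulated data. Python 3.11.15, pandas 2.3.3, scipy 1.17.1 and matplotlib 3.10.9 were used for the rest.

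The members, gene lists and tests were chosen with earlier results of these data known. The rule for named genes was all 9 members, genes of the pathway lists called at 7d or over the time course (up to 12 a list), and the 10 genes most like the members by Pearson's r. Cdh5, S100a8, S100a9, Ibsp, Col1a1 and Bglap2, marker genes called at 7d, are named beyond that rule, after their values were seen. So are Cd14 and Cd163, macrophage markers called over the time course. The labels give no replicate numbers, so those used here follow the order of the samples and only name a mouse. Each library is from its own mouse, and p-values measure the spread between mice. The 21d share of the 7d level within the later campaign was added after the data were seen. A floor of 3 counts covers counting error only, as PCR copies are not independent molecules. Gene positions and transcripts are those of GENCODE for GRCm38, and promoters are from RefSeq for GRCm38.p6.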

Additional observations from a re-analysis of the deposited data

Results flagged for a closer look

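The course of Atp6v0d2 over time differed between the earlier and the later campaign by the interaction term of edgeR's quasi-likelihood test over 21 mice and 6 time points (adjusted p = 0.0337). At 7d the earlier-campaign mice had 163 and 112 CPM and the later-campaign mice 28.4 to 60.5 CPM, and at 6h the order was the other way, with 1.91 and 1.76 CPM in the earlier-campaign mice and 8.11 CPM in the later-campaign mouse. Its part in the comparisons over time was not tested beyond the fits with campaign as a covariate and without the left-foot mice. None of the 9 genes had a mouse at 7d that stood apart from the other 5 by Dixon's criterion.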

How the results depend on the processing

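In these results the number of members called moved by more than 1.5 times under few alternatives. At 3d it was 5 without the left-foot mice and 5 with DESeq2's test, against 3, and at 21d 5 with DESeq2's test, against 3. From 3d to 7d it was 1 at a threshold of 0.01 and 0 in a fit of the 2 time points alone, against 2, and from 7d to 14d it was 1 and 1 under the same alternatives, against 2. For the time course by campaign it was 2 without the left-foot mice, against 1. With each mouse left out in turn, the count ran from 2 to 4 at 3d, from 6 to 7 at 7d, from 2 to 4 at 14d, from 1 to 4 at 21d, from 0 to 2 from 3d to 7d and from 1 to 2 from 7d to 14d, and it was 7 throughout for the time course. In 749 of 772 comparisons of a count or a 7d fold change with its alternative the direction and the call, or the count within 1.5 times, were unchanged, and none reversed. Oscar at 7d lost its call in 5 fits with 1 mouse left out. The cause was not tested. The log2 fold changes at 7d, with all alternatives but single mice, ran from 3.98 to 4.89 for Acp5, 4.61 to 5.02 for Ctsk, 3.40 to 6.02 for Dcstamp, 4.46 to 5.91 for Atp6v0d2, 2.52 to 4.79 for Oscar, 1.44 to 1.77 for Nfatc1 and 2.82 to 3.18 for Itgb3, the lowest of Dcstamp and Oscar being on the log2(TPM + 1) scale, which shrinks low genes. Over all genes, the number called at 7d ran from 130 to 591, against 323, and over the time course from 604 to 2452, against 1243. By DESeq2 the calls at 7d were 7 against 4 among the receptors, adaptors and kinases, 4 against 2 among the neutrophil markers and 5 against 3 among the osteoblast markers. Calcr could not be tested against 0h except without a filter on low counts (adjusted p = 0.419 at 7d). It did pass the filter of the edgeR fit of time by campaign over 21 mice, where it was not called (adjusted p = 0.823). No paired analysis was run, because each library is from its own mouse. Low counts limit Oscar, Calcr and Dcstamp at 0h.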
